A study of Mus musculus with 12 samples.

Results

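The genes described here are 38 mouse genes of the ATF4 and amino acid stress response, out of 55487 genes in the table of read counts. The rule lists them by name and uses no measured value, although the list was drawn up with earlier results of these data known. They comprise 12 stress regulators and effectors, 3 secreted factors, 9 enzymes of amino acid synthesis, 6 amino acid transporters and 8 genes of tRNA charging. All 38 were found in the table and all 38 passed the filter on low counts.

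ATF4 is a transcription factor whose mRNA is translated better when the initiation factor eIF2 is phosphorylated. The kinases that do so respond to amino acid shortage, unfolded protein in the endoplasmic reticulum, double-stranded RNA, or heme deficiency and mitochondrial stress. ATF4 then binds, usually with a C/EBP partner, to genes that make, import and load amino acids, and to genes that slow growth or end the response. The mTORC1 pathway, which growth factors switch on, is also known to raise ATF4. In muscle the response is known for the release of the hormones FGF21 and GDF15.

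The samples were myotubes of C2C12, a mouse myoblast line that fuses into multinucleated fibers once serum is lowered. All were differentiated for 5 days in DMEM with 2% horse serum, and then received, for 24 h, DMEM with 4% horse serum (libraries HS 1 to HS 6) or with 4% STEM (libraries STEM 7 to STEM 12). STEM consists of factors secreted by human embryonic stem cells that were partly differentiated. It holds no cells and is a solution whose own ingredients include proteins, amino acids, vitamins and minerals. It took the place of horse serum, so the effects of adding STEM and of removing serum cannot be told apart. No serum-free group is among the 12 libraries.

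Each library held 13285472 to 18254882 counts with horse serum and 14909485 to 24536264 with STEM. The summed level of 9 myotube markers was 12203 to 13247 counts per 1000000 of the normalized library total (CPM) in HS 1 to HS 5, 6918 CPM in HS 6 and 10327 to 13001 CPM with STEM. Of these 9 genes, Mymk was called higher (0.36 on the log2 scale) and Myog (-0.29) and Myh8 (-1.25) lower with STEM. The sum of 5 markers of undifferentiated or dividing myoblasts was 539 to 863 CPM with horse serum, with HS 6 the highest, and 428 to 498 CPM with STEM, and Myf5 (-0.42), Mki67 (-0.62) and Top2a (-0.65) were called lower. Sums of 4 macrophage markers were 2.05 to 4.80 CPM with horse serum and 4.04 to 5.48 CPM with STEM. Most of each sum was Cd68, at 2.0 to 4.66 CPM and 3.31 to 4.54 CPM, respectively, and not called. Csf1r, which did not pass the filter on low counts, was at 0.0512 to 0.544 CPM and 0.404 to 1.23 CPM. Ptprc was at most 0.0706 CPM, and Adgre1 was at 0 in every library. The sums of 3 endothelial and 3 adipocyte markers were at most 0.353 and 0.0772 CPM, with Kdr, Plin1 and Cfd at 0 in every library. HS 6 thus stood apart from the other horse serum libraries, and calls among the 38 genes that changed without it are given both ways.

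Many of the response genes carry in their promoters a C/EBP-ATF response element (CARE), the composite site at which ATF4 is known to bind. It was searched as TGATGNAA on both strands of the window from 250 bases before to 50 bases after each RefSeq transcription start (build GRCm38.p6). A window was given for 34 of the 38 genes, and 13 of these (38.2%) held at least 1 match, against 4.51% of all 27025 genes with a window. These 13 were Atf3, Trib3, Nupr1, Chac1, Vldlr, Fgf21, Asns, Pycr1, Pck2, Slc7a11, Aars, Gars and Iars. The 9 stretches shown are from genes on which the results turn, 7 of them higher with STEM and 2, Vldlr and Fgf21, not called. Each reads 5′ to 3′ on the strand of its gene, and capitals mark the matched letters.
Atf3, chr1:191183416-191183463, minus strand: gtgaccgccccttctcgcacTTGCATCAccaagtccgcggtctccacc
Nupr1, chr7:126625553-126625600, minus strand: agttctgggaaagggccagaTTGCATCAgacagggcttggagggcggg
Chac1, chr2:119351029-119351076, plus strand: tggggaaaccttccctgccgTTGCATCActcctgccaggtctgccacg
Vldlr, chr19:27216800-27216847, plus strand: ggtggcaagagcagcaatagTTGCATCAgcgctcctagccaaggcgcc
Fgf21, chr7:45615602-45615649, minus strand: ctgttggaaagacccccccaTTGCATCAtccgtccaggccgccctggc
Asns, chr6:7693210-7693252, minus strand: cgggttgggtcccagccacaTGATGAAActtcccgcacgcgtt
Pycr1, chr11:120643824-120643871, minus strand: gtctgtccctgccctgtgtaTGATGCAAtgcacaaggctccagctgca
Slc7a11, chr3:50443633-50443699, minus strand: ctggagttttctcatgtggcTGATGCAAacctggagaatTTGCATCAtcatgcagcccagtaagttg
Aars, chr8:111033710-111033757, plus strand: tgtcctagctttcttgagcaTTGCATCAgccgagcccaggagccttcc

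The letters TTGCATCA, or their reverse complement TGATGCAA, made up 10 of the 15 matches and occurred in 9 of the 13 genes. Slc7a11 held the pair on opposite strands, with 11 bases between them. The match lay 110 bases before the start in both Atf3 and Nupr1, 139 bases before it in Fgf21, 200 bases before it in Vldlr and 23 bases before it in Asns. A match is a stretch of letters and was not tested for binding. The cAMP response element TGACGTCA, also searched on both strands, was in none of the 34 windows and in 2.03% of all genes. Of the 13 genes with a CARE match, 10 were called higher with STEM, and of the 21 genes with a window and no match, 13 were.

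Of the 38 genes, 26 were higher with STEM than with horse serum and none was lower; a gene was called when its adjusted p-value did not exceed 0.05 (edgeR's quasi-likelihood test, Benjamini-Hochberg adjustment over 14175 genes). Over all 14175 genes tested, 18.9% were called higher and 17.4% lower, 36.4% in all. For the 38 genes the median log2 fold change stood at 0.38, against 0.012 over all genes tested. The values ranged from -0.37 for Vldlr to 1.49 for Atf3, and 36 of 38 were above 0. The lowest STEM library exceeded the highest horse serum library for 10 of the 38 genes, as for 8.68% of all genes, and none of the 38 showed the reverse, as 8.52% of all genes did. Most changes were small, since only Atf3, Gdf15 and Slc7a11 reached a log2 fold change of 1. As these are counts from whole cultures, fewer cells of a type and less RNA per cell cannot be told apart.

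**Figure D1:**
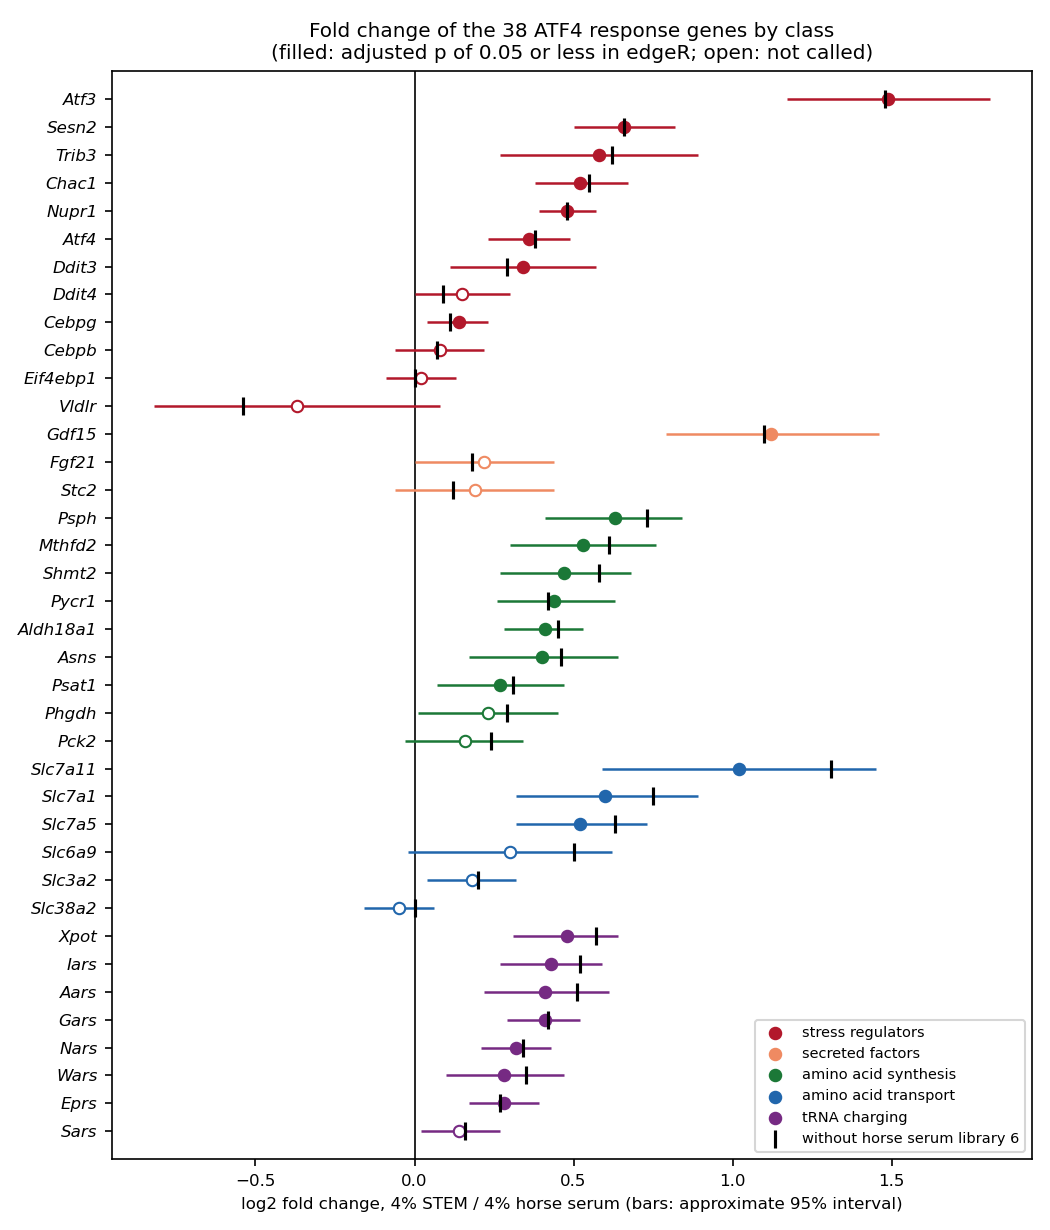
Log2 fold change (STEM over horse serum) of the 38 genes, by class, with approximate 95% intervals of 1.96 standard errors, not adjusted for the number of genes, and a black tick at the value without HS 6; filled points were called (adjusted p-value not above 0.05). Atf3, Gdf15 and Slc7a11 lie farthest to the right, at 1.49, 1.12 and 1.02, while Vldlr, at -0.37, has an interval from -0.82 to 0.08.

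Among the 12 stress regulators and effectors, 8 rose with STEM, 4 were not called and the median log2 fold change was 0.35. For this class and those that follow, the share over all genes tested was 18.9% higher and 17.4% lower. Without HS 6 it was 26.3% higher and 24.5% lower. Atf4 itself (chromosome 15, 80255184 to 80257541, GRCm38) was the most abundant of the 38 genes per length, at a mean of 174 CPM per kilobase of exon with horse serum and 223 with STEM. Atf4 stood at 387 to 444 CPM (median 404) with horse serum and at 451 to 600 CPM (median 511) with STEM. The groups did not overlap, and the log2 fold change was 0.36 ± 0.0671 (SE, n = 6 per group; adjusted p = 0.000782, edgeR). ATF4 is controlled largely at translation, which counts of RNA do not measure.

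Atf3 (chromosome 1, 191170296 to 191218039) encodes a stress-induced factor of the same family that is itself an ATF4 target. Its level was 2.96, 4.14 and 5.28 CPM at the lowest, median and highest with horse serum, and 8.15, 12.3 and 15.9 CPM with STEM. This was the largest difference of the 38 (log2 fold change 1.49 ± 0.16, adjusted p = 8.94e-06). Every STEM library lay above every horse serum library, although Atf3 was among the scarcest of the 38 transcripts.

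Nupr1, a small stress-induced chromatin protein, varied little within each group. It ranged from 74.4 to 86.7 CPM (median 81.6) with horse serum and from 107 to 117 CPM (median 113) with STEM, a log2 fold change of 0.48 ± 0.0471 (adjusted p = 3.29e-06). Sesn2, a leucine-binding inhibitor of mTORC1, ranged from 11.8 to 16.7 CPM (median 15.2) and from 21.2 to 26.0 CPM (median 23.2), respectively (0.66 ± 0.0817, adjusted p = 2.55e-05). Chac1 degrades glutathione. It went from 23.6 to 29.0 CPM (median 26.1) with horse serum to 33.5 to 44.0 CPM (median 38.2) with STEM (0.52 ± 0.0743, adjusted p = 8.16e-05). For these 3 genes too the groups were apart.

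Trib3, a pseudokinase that feeds back on ATF4, and Ddit3, which encodes CHOP, a factor linked to cell death under prolonged stress, were also higher but overlapped between groups. Trib3 was at 19.9 to 30.8 CPM (median 23.5) with horse serum and 29.3 to 51.0 CPM (median 32.0) with STEM (0.58 ± 0.16, adjusted p = 0.0117). Ddit3 was at 26.8 to 36.5 CPM (median 32.1) and 32.2 to 49.6 CPM (median 40.6), with a log2 fold change of 0.34 ± 0.12 (adjusted p = 0.0367). The call for Ddit3 was lost under 9 of 18 alternatives, which were no filter on low counts and the omission of HS 2, HS 3, HS 5, HS 6, STEM 7, STEM 8, STEM 9 or STEM 10 (adjusted p = 0.11 at most, and 0.0739 without HS 6). Its exons share 68 bases with those of Mars on the other strand, and whether the counting used the strand is not given in the sources used here.

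The C/EBP partners of ATF4 differed little between groups. Cebpg was at 54.2 to 65.0 CPM (median 59.3) with horse serum and 60.4 to 67.5 CPM (median 66.2) with STEM, a log2 fold change of 0.14 ± 0.0485 (adjusted p = 0.0394). Cebpg lost its call under 12 of 18 alternatives, 9 of which left out 1 library: any of HS 2 to HS 5 or STEM 7 to STEM 11 (adjusted p = 0.145 at most). For Cebpb, which shares 312 exon bases with Tmem189 on the other strand, the log2 difference was 0.08, with an interval of -0.06 to 0.22 (adjusted p = 0.389). Ddit4 (also known as REDD1) and Eif4ebp1 both restrain translation through the mTORC1 pathway. Ddit4 had a log2 difference of 0.15 (adjusted p = 0.142), and Eif4ebp1 one of 0.02 with an interval of -0.09 to 0.13 (adjusted p = 0.776).

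Vldlr, the very low density lipoprotein receptor and an ATF4 target in other cells, was far lower in HS 6 than in the other horse serum libraries. It was at 219 to 273 CPM in HS 1 to HS 5, at 80.1 CPM in HS 6 and at 147 to 180 CPM (median 167) with STEM. With all libraries the log2 difference was -0.37 ± 0.23 (adjusted p = 0.23). Without HS 6 the groups did not overlap and Vldlr was lower with STEM (-0.54 ± 0.0617, adjusted p = 2.91e-06), the only one of the 38 in that direction.

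**Figure D2:**
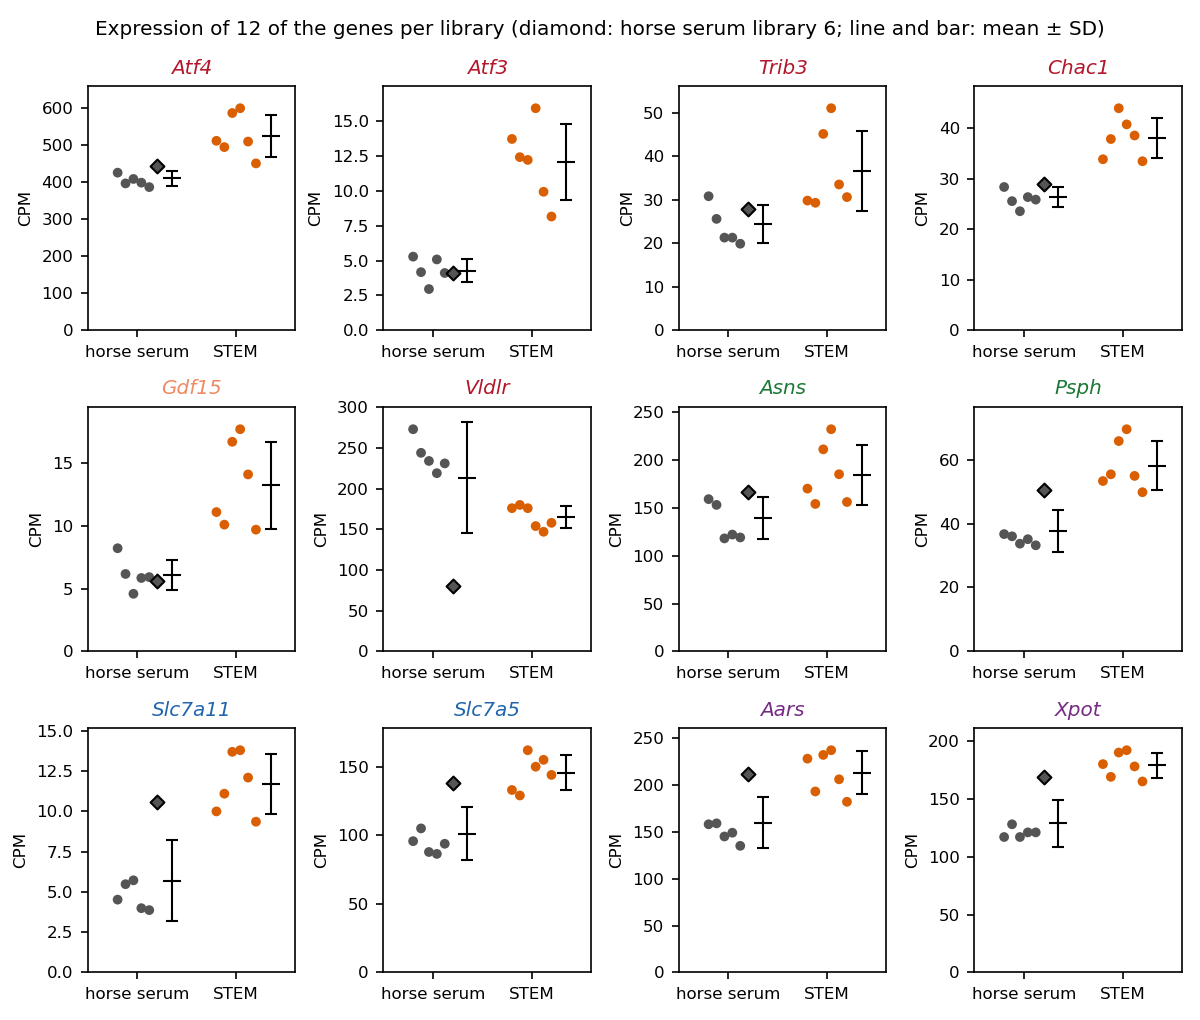
Level in CPM (linear axes from 0) of 12 of the genes in each of the 12 libraries, with horse serum and STEM side by side, a line and bar for mean ± SD (n = 6), and a diamond for HS 6. The STEM points of Atf3 (8.15 to 15.9 CPM) and Gdf15 (9.70 to 17.7 CPM) all lie above those of horse serum, while a single horse serum library, HS 6, lies low for Vldlr and high for Slc7a11.

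Of the 3 secreted factors, 1 rose, where 18.9% of all genes did. Gdf15 (chromosome 8, 70629393 to 70632456) encodes a hormone that acts on the hindbrain to lower food intake. It was at 4.59 to 8.22 CPM (median 5.88) with horse serum and at 9.70 to 17.7 CPM (median 12.6) with STEM. The groups did not overlap, and the log2 fold change was 1.12 ± 0.17 (adjusted p = 0.00018). Fgf21, an endocrine factor of fasting and of muscle stress, was at 59.5 to 81.7 CPM (median 69.4) and 65.5 to 107 CPM (median 75.3), and was not called (0.22, adjusted p = 0.142). Stc2, a secreted glycoprotein of the stress response, had a log2 difference of 0.19 with an interval of -0.06 to 0.44 (adjusted p = 0.252).

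Enzymes of amino acid synthesis were higher in 7 of 9 cases, with a median log2 fold change of 0.41. The serine pathway runs from Phgdh through Psat1 to Psph, and its last enzyme moved most. Psph, the phosphatase that releases serine, was at 33.2 to 50.6 CPM (median 35.6) with horse serum and 49.8 to 69.5 CPM (median 55.2) with STEM (0.63 ± 0.11, adjusted p = 0.000506). Only HS 6, at 50.6 CPM, reached the STEM range. The exons of Psph share 452 bases with Cct6a on the other strand, a more highly counted gene. Psat1, the transaminase before it, was at 196 to 255 CPM (median 222) and 229 to 330 CPM (median 257), a log2 fold change of 0.27 ± 0.10 that was just past the threshold (adjusted p = 0.0488). Psat1 lost its call under 12 of 18 alternatives, among them limma-voom, other scalings and filters, and the omission of any of HS 2 to HS 5 or STEM 9 to STEM 11 (adjusted p = 0.141 at most). Phgdh, which commits 3-phosphoglycerate to serine, was at 179 to 244 CPM (median 198) and 201 to 292 CPM (median 224), and was not called (0.23, interval 0.01 to 0.45, adjusted p = 0.125).

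Serine then feeds the mitochondrial folate cycle. Shmt2, which splits serine to glycine and a folate-bound carbon, was at 75.6 to 116 CPM (median 81.5) with horse serum and 104 to 138 CPM (median 116) with STEM (0.47 ± 0.10, adjusted p = 0.00265). Mthfd2, the next enzyme of that cycle, was at 88.9 to 132 CPM (median 100) and 123 to 185 CPM (median 143) (0.53 ± 0.12, adjusted p = 0.00346). In both genes HS 6 was the highest horse serum library and the only one within the STEM range.

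Proline synthesis begins with Aldh18a1 and ends with Pycr1. Aldh18a1 was at 81.7 to 106 CPM (median 92.6) with horse serum and 117 to 133 CPM (median 124) with STEM, the only synthesis gene without overlap (0.41 ± 0.0636, adjusted p = 0.000184). Pycr1 was at 13.7 to 18.2 CPM (median 14.4) and 17.2 to 23.7 CPM (median 21.7) (0.44 ± 0.0958, adjusted p = 0.00218). Asns (chromosome 6, 7675169 to 7693254), which makes asparagine and is the classical target of the amino acid response, was at 118 to 166 CPM (median 137) and 154 to 232 CPM (median 177) (0.40 ± 0.12, adjusted p = 0.0185). Its groups overlapped. Pck2, the mitochondrial enzyme that makes phosphoenolpyruvate, was at 78.3 to 112 CPM (median 80.8) and 80.7 to 110 CPM (median 96.6), and was not called (0.16, adjusted p = 0.21). Without HS 6 it was called (0.24 ± 0.0672, adjusted p = 0.00691).

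Of the 6 amino acid transporters, 3 rose (5 without HS 6) and the median was 0.41. With all libraries no transporter was free of overlap between the groups. Over all genes, 8.68% were free of overlap and higher with STEM, and 8.52% free of overlap and lower. Without HS 6 the groups were apart for Slc7a11, Slc7a5, Slc7a1 and Slc6a9, and still overlapped for Slc3a2 and Slc38a2. Leaving out a library can only reduce overlap, and the share over all genes without HS 6 was not computed. Slc7a11 (chromosome 3, 49892526 to 50443614) imports cystine, the source of cysteine for glutathione. It was the scarcest of the 38 per length, at a mean of 0.409 CPM per kilobase of exon with horse serum. Its levels were 3.87 to 5.72 CPM in HS 1 to HS 5, 10.6 CPM in HS 6 and 9.36 to 13.8 CPM (median 11.6) with STEM. The log2 fold change was 1.02 ± 0.22 with all libraries (adjusted p = 0.0026) and 1.31 ± 0.13 without HS 6, when the groups no longer overlapped.

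Slc7a5 and Slc3a2 are the light and heavy chains of the LAT1 carrier of leucine and other large amino acids. Slc7a5 was at 86.4 to 138 CPM (median 94.7) with horse serum and 129 to 162 CPM (median 147) with STEM (0.52 ± 0.10, adjusted p = 0.00139). Its overlap came from HS 6 alone, at 138 CPM, as HS 1 to HS 5 reached at most 105 CPM. The shared heavy chain, Slc3a2, was at 119 to 143 CPM (median 132) and 127 to 171 CPM (median 145), and missed the threshold (0.18, interval 0.04 to 0.32, adjusted p = 0.0643). Slc3a2 was called without HS 6 (0.20, adjusted p = 0.0461) and without STEM 12 (0.22, adjusted p = 0.0237). Slc7a1, the carrier of arginine and lysine, was at 20.5 to 37.8 CPM (median 23.3) and 34.2 to 47.4 CPM (median 37.5), and rose (0.60 ± 0.14, adjusted p = 0.00518). Here too HS 6, at 37.8 CPM, was the sole horse serum library in the STEM range, with HS 1 to HS 5 at most at 27.6 CPM. The glutamine and alanine carrier Slc38a2, a textbook target of amino acid starvation, was level between the group medians. It was at 357 to 446 CPM with horse serum and 351 to 379 CPM with STEM, with a median of 366 CPM in both, and its log2 difference was -0.05 with an interval of -0.16 to 0.06 (adjusted p = 0.488). Slc6a9, which imports glycine, was at 12.4 to 16.6 CPM in HS 1 to HS 5, 27.4 CPM in HS 6 and 18.5 to 23.1 CPM with STEM. It was not called with all libraries (0.30 ± 0.16, adjusted p = 0.175) and was higher without HS 6 (0.50 ± 0.0869, adjusted p = 8.37e-05). On the other strand its exons share 1429 bases with Ccdc24 (at most 7 counts) and 46 bases with B4galt2 (510 to 1025 counts).

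The 8 genes of tRNA charging lay within a narrow range, with 7 higher, log2 fold changes from 0.14 to 0.48 and a median of 0.36. Gars, which loads glycine, was at 284 to 326 CPM (median 308) with horse serum and 358 to 446 CPM (median 404) with STEM (0.41 ± 0.059, adjusted p = 9.46e-05). Eprs, which loads glutamate and proline, was at 485 to 531 CPM (median 497) and 553 to 675 CPM (median 609) (0.28 ± 0.0545, adjusted p = 0.00107). Nars, for asparagine, was at 319 to 358 CPM (median 332) and 384 to 471 CPM (median 412) (0.32 ± 0.0538, adjusted p = 0.000334). In these 3 genes the groups did not overlap.

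In the other charging genes the groups overlapped. Xpot, the exporter of tRNA from the nucleus, was at 117 to 169 CPM (median 121) with horse serum and 165 to 192 CPM (median 179) with STEM (0.48 ± 0.0829, adjusted p = 0.000475). Iars, for isoleucine, was at 77.3 to 111 CPM (median 82.1) and 107 to 129 CPM (median 116) (0.43 ± 0.0825, adjusted p = 0.000942). Aars, for alanine, was at 135 to 212 CPM (median 154) and 182 to 237 CPM (median 217) (0.41 ± 0.10, adjusted p = 0.00527). In each of these 3 it was HS 6 alone that reached the STEM range. The exons of Aars share 1326 bases with Exosc6 on the same strand, a gene with 0 counts. Reads in shared bases may have been left out for both genes, so 0 counts need not mean that Exosc6 was silent. Wars, for tryptophan, had a log2 fold change of 0.28 ± 0.0924 (adjusted p = 0.0261), and lost its call without HS 3, HS 4, HS 5, STEM 9 or STEM 10 (adjusted p = 0.062 at most). Sars, for serine, was not called (0.14, adjusted p = 0.0961) until HS 6 (0.16 ± 0.0603, adjusted p = 0.0309) or STEM 12 was left out.

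Within the horse serum group, HS 6 did not hold the same place in every class. It was the highest horse serum library for 19 of the 23 genes of synthesis, transport and tRNA charging and the lowest for none of them. For the 15 stress and secreted genes it was the highest in 2 and the lowest in 7. Over all genes tested, HS 6 was the highest horse serum library for 35.8% and the lowest for 33.1%. The mean log2(CPM + 1) of the transporters was 5.42 to 5.67 in HS 1 to HS 5, 6.11 in HS 6 and 5.94 to 6.17 with STEM, so that HS 6 sat in the STEM range. The stress class instead had its lowest mean in HS 6, at 5.60, against 5.67 to 5.92 in HS 1 to HS 5 and 5.93 to 6.24 with STEM. That mean includes Vldlr, at 80.1 CPM in HS 6 against 219 to 273 CPM in HS 1 to HS 5, and may rest on it. Atf4 (444 CPM) and Chac1 (29.0 CPM) were highest in HS 6 among the horse serum libraries.

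Without HS 6, 29 of the 38 genes were higher with STEM and 1 was lower, where 26.3% of all genes were called higher and 24.5% lower. The median over the 38 genes was then 0.42 on the log2 scale. HS 6 also had the lowest sum of myotube markers and the highest sum of myoblast markers of its group, as given above. Of the myoblast markers, Mki67 (322 CPM) and Ccnb1 (114 CPM) were highest in HS 6 among the horse serum libraries. Top2a was highest in HS 1, while Pax7 (26.0 CPM) and Myf5 (15.9 CPM) were lowest in HS 6. The part of these markers in the result was not tested. The stress genes Atf3, Sesn2, Nupr1 and Atf4 kept log2 fold changes of 1.48, 0.66, 0.48 and 0.38 without that library.

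The STEM libraries differed among themselves as well. STEM 9 or STEM 10 was the highest STEM library for 32 of the 38 genes, against 35.2% of all genes, and STEM 12 was the lowest for 21, against 20.4%. Within horse serum, HS 1 was the highest library for 15 of the 38 genes, against 18.5% of all genes. The 38 genes share these libraries, so the values are a description of how they varied together. The labels do not give a plate, day or batch that could be set beside these libraries.

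**Figure D3:**
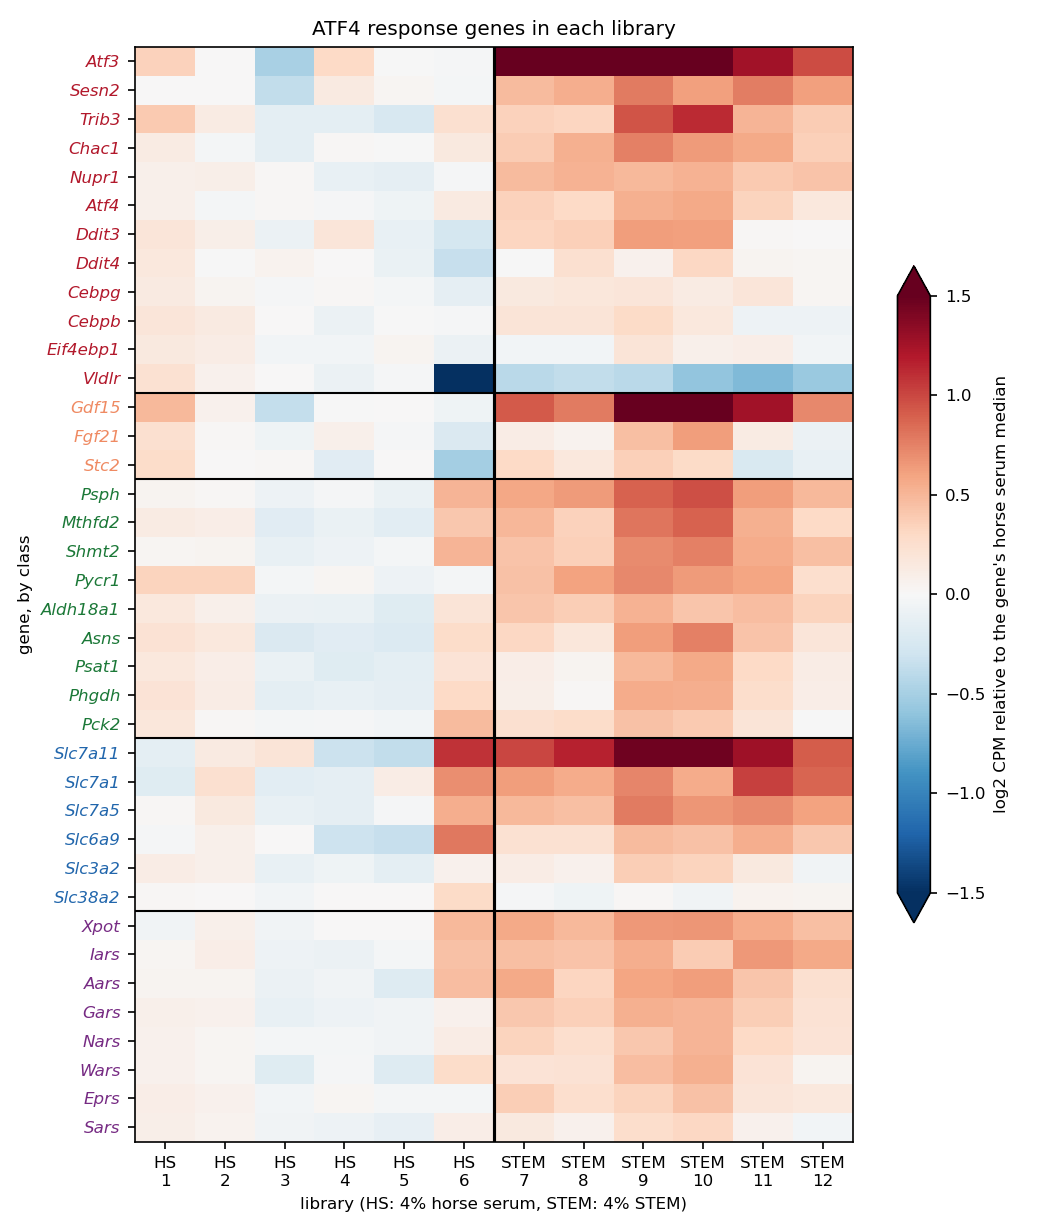
Log2 CPM of each of the 38 genes (rows, by class) in each of the 12 libraries (columns), as the difference from the horse serum median of the gene, with the colour scale capped at both ends. STEM 9 and STEM 10 are the highest columns in most rows, and HS 6 is high for transporters and most synthesis genes but low for Vldlr.

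Upstream of ATF4, the genes of eIF2 signalling were considered as a list of 16, with the eIF2 kinases, the subunits of eIF2 and of its exchange factor eIF2B, and regulators. Of these, 9 rose (11 without HS 6), none fell and the median log2 fold change was 0.23. Over all genes tested, 18.9% were called higher and 17.4% lower, and without HS 6 26.3% and 24.5%. Among the 4 kinases, Eif2ak1 (HRI, of heme and mitochondrial stress) rose from 26.2 ± 1.78 to 34.4 ± 2.75 CPM (mean ± SD, n = 6; log2 fold change 0.39, adjusted p = 0.000296). Eif2ak3 (PERK, of the endoplasmic reticulum) rose from 24.6 ± 1.85 to 31.1 ± 2.21 CPM (0.34, adjusted p = 0.00102). The kinase of uncharged tRNA, Eif2ak4 (GCN2), was at 26.5 ± 2.89 and 26.0 ± 1.72 CPM and not called (adjusted p = 0.777), and Eif2ak2 (PKR) had a log2 difference of 0.13 (adjusted p = 0.226). The counts say nothing of the activity of these kinases, which is set by phosphorylation.

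Regulators that dampen the kinases' signal rose too. Ppp1r15a (GADD34), which directs a phosphatase to eIF2 and ends the response, went from 21.2 ± 1.76 to 28.1 ± 3.91 CPM (0.41, adjusted p = 0.00257). Dnajc3, a chaperone that inhibits the kinases, went from 101 ± 2.08 to 122 ± 4.90 CPM (0.27, adjusted p = 7.74e-05). Apart from these regulators, Eif2b4, a subunit of the exchange factor eIF2B, went from 27.7 ± 1.44 to 37.0 ± 2.80 CPM (0.42, adjusted p = 8.63e-05).

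Of 17 further ATF4 targets, 6 rose, 2 fell and 9 were not called, with a median log2 fold change of 0.17. Among all genes tested, 18.9% rose and 17.4% fell. Without HS 6, 8 of the 17 were higher and 4 lower, where 26.3% and 24.5% of all genes were. Atf5, a related factor of mitochondrial stress that is also regulated at translation, rose from 29.1 ± 4.17 to 45.0 ± 4.05 CPM (0.63, adjusted p = 8.69e-05). Got1, the cytosolic aspartate aminotransferase, rose from 62.7 ± 5.49 to 80.6 ± 7.21 CPM (0.36, adjusted p = 0.000752). Klhl24, an adaptor of a ubiquitin ligase, fell from 323 ± 46.1 to 193 ± 11.3 CPM (-0.75, adjusted p = 1.98e-05). The other gene that fell, named after its values were seen, was Niban1 (-0.37, adjusted p = 0.005).

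The remaining cytosolic tRNA synthetases and their scaffold proteins rose in 12 of 16 cases, with none lower and a median of 0.28. For this set and the next, the share over all genes was 18.9% higher and 17.4% lower. Examples were Tars, for threonine (0.39, adjusted p = 0.000145), Yars, for tyrosine (0.39, adjusted p = 6.71e-05), and Eef1e1, a scaffold of the synthetase complex (0.46, adjusted p = 4.12e-05). The mitochondrial synthetases, a separate set of genes, were higher in 7 and lower in 1 of 17 cases, with a median of 0.16. The single lower gene, Pars2 (-0.34, adjusted p = 0.026), named after its values were seen, lost its call without HS 1, HS 2, STEM 9 or STEM 10. The 3 with the lowest p-values were Ears2 (0.57, adjusted p = 0.000195), Yars2 (0.26, adjusted p = 0.00126) and Cars2 (0.41, adjusted p = 0.00178). Whether the cytosolic and mitochondrial sets differed was not tested.

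Other enzymes of serine, proline and folate metabolism were mixed, as 5 of the 15 tested rose, 3 fell and the median was 0.12. Among all genes tested, 18.9% rose and 17.4% fell. The number that rose was 2 to 3 without any 1 of HS 1 to HS 5, STEM 7, STEM 9, STEM 10 or STEM 12. Over all genes, 2289 to 2502 rose with these omissions. The number that fell was 5 without HS 6, where 24.5% of all genes fell. Mthfd1, the cytosolic counterpart of Mthfd2, rose from 45.2 ± 4.41 to 59.0 ± 3.94 CPM (0.38, adjusted p = 0.000439). Aldh4a1, of proline breakdown, rose from 10.2 ± 1.32 to 13.1 ± 0.753 CPM (0.37, adjusted p = 0.00357). Aldh1l1, which returns folate-bound carbon to carbon dioxide, fell from 4.37 ± 0.726 to 2.65 ± 0.478 CPM (-0.72, adjusted p = 0.00165).

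Genes of the ATF6 and XBP1 branches of the endoplasmic reticulum stress response, the sensors Atf6 and Ern1 included, were taken as a further list of 14. Of these, 10 rose, none fell and the median was 0.29, where 18.9% of all genes rose and 17.4% fell. Xbp1 itself went from 169 ± 8.0 to 212 ± 7.90 CPM (0.33, adjusted p = 4.13e-05). Edem1, of the disposal of misfolded protein, went from 63.7 ± 3.52 to 84.3 ± 4.72 CPM (0.41, adjusted p = 2.51e-05), and Manf, a secreted protein of the same response, from 98.7 ± 5.70 to 127 ± 6.36 CPM (0.37, adjusted p = 4.78e-05). The counts per gene do not separate the spliced form of Xbp1.

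**Figure D4:**
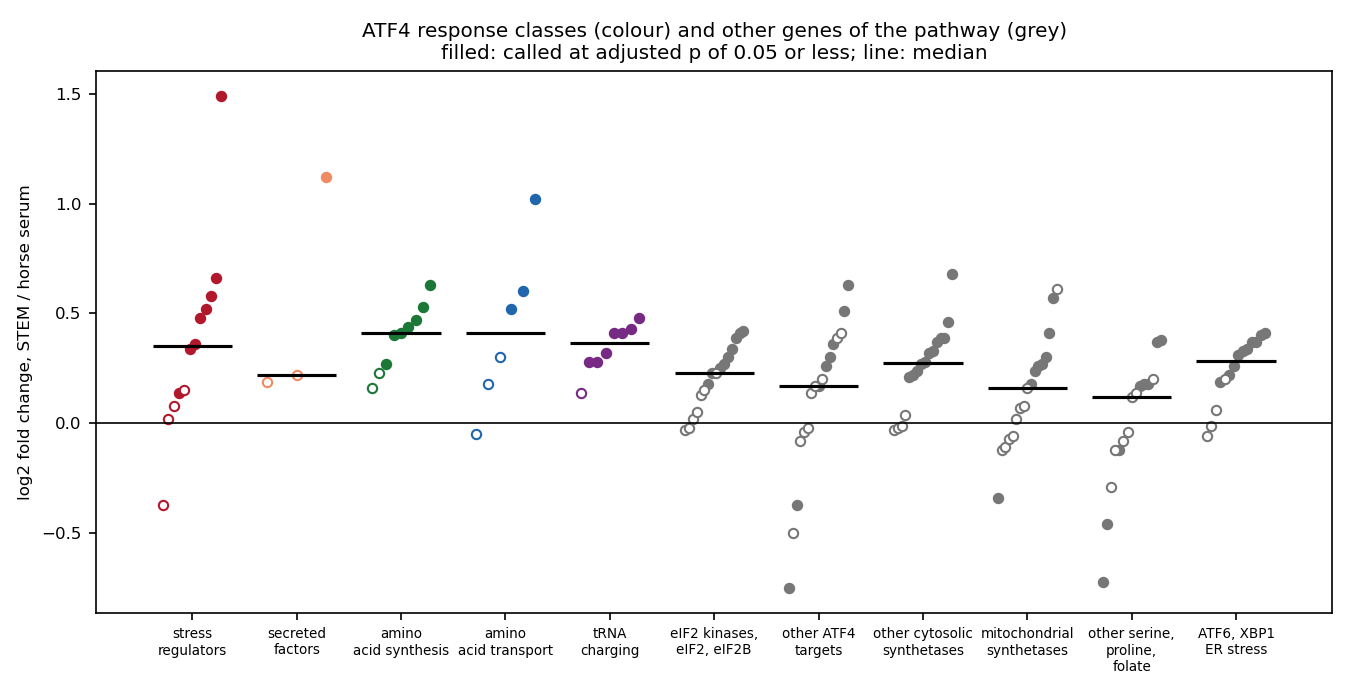
Log2 fold change (STEM over horse serum) of each gene in the 5 classes of the 38 genes (colour) and in 6 lists of other genes of the pathway (grey), with filled points for called genes (adjusted p-value not above 0.05) and a line at each median. Medians run from 0.12 for the other serine, proline and folate enzymes to 0.41 for synthesis and transport, and the lists overlap widely.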

How the data were processed

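The authors removed ribosomal RNA from total RNA and prepared strand-specific libraries. They deposited raw counts of reads per Ensembl gene (GRCm38), without normalization, for 6 libraries per group. The submitters' processing notes name STAR 2.7.3a, featureCounts 1.6.3 and DESeq2 1.26.0. The annotation release and the strand setting of the counting are not given in the sources used here. Groups were taken from the sample labels.

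Counts were tested with edgeR 4.0.16 (glmQLFit, robust, and glmQLFTest, TMM, filterByExpr) in R 4.3.3 over all 14175 genes that passed the filter, of 29620 with counts, with no covariate. Adjustment followed Benjamini and Hochberg. SE was the absolute log2 fold change over the square root of F, and intervals are 1.96 SE either side. These intervals take the normal quantile and are narrower than the F test implies. CPM were taken relative to the TMM-normalized library total. The level per kilobase used exon lengths of GENCODE M21, in which 55227 of 55487 identifiers were found. Identifiers not found there had 0.00268% of all counts. Ddit3 had a second identifier without counts, which was not used. Promoter windows came from RefSeq (GRCm38.p6). None was given for Eif4ebp1, Slc7a5, Wars and Nars.

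The members and all gene lists were chosen with earlier results of these data known, so no list was tested. The genes named were all 38 members, the 3 called genes with the lowest p-values of each other list, the 4 eIF2 kinases and Ppp1r15a. Niban1, Pars2 and the marker genes were named after their values were seen. Some other genes of the lists are not reported here by name. The fit was tested on simulated data.

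The methods describe collection of RNA per well of culture plates. Whether the wells of a group shared a plate or a passage is not given in the sources used here, so p-values measure the spread between these libraries, which may be technical. No pair of libraries of a group agreed within sampling noise. Depth was 13285472 to 24536264 counts per library. Alternatives were DESeq2's size factors, library totals only, no filter, at least 10 counts in every library, DESeq2 1.42.0, limma-voom (limma 3.58.1), an adjusted p-value of 0.01 and leaving out each library in turn.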

Additional observations from a re-analysis of the deposited data

Results flagged for a closer look

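Each of the 38 genes was examined for a library far from the others of its group, by the gap to the nearest library as a share of the group's range (Dixon's 95% critical value for 6 libraries). Chance flags about 1 in 20 groups, and 11 of 76 were flagged, 10 of them for HS 6. HS 6 was high for Psph (50.6 CPM, others 33.2 to 36.7), Shmt2 (116 CPM, others 75.6 to 84.0), Slc7a11 (10.6 CPM, others 3.87 to 5.72) and Slc7a5 (138 CPM, others 86.4 to 105). It was also high for Slc38a2 (446 CPM, others 357 to 369), Slc6a9 (27.4 CPM, others 12.4 to 16.6), Aars (212 CPM, others 135 to 159), Iars (111 CPM, others 77.3 to 88.1) and Xpot (169 CPM, others 117 to 128). It was low for Vldlr (80.1 CPM, others 219 to 273). STEM 12 was low for Cebpg (60.4 CPM, others 64.8 to 67.5).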

How the results depend on the processing

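Over 18 alternatives to the test of the 38 genes, 637 of 684 values kept their side of the threshold, 40 lost the call and 7 gained one. No called gene changed sign, while the sign of 2 values near 0 did, of Eif4ebp1 without STEM 9 and of Slc38a2 without HS 6. Of the 26 genes called, 20 kept their call throughout. The other 6 were Asns, Cebpg, Ddit3, Psat1, Trib3 and Wars.

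Without the filter, 5 stress genes and 2 of the other serine, proline and folate enzymes were higher. With at least 10 counts in every library, 3 of those enzymes were. Over all genes, 2308 of 29620 tested were higher without the filter, and 2454 of 12939 with at least 10 counts. At an adjusted p-value of 0.01, 1676 genes were higher and 1590 lower over all genes. The stress genes higher then numbered 5, the mitochondrial synthetases 4 higher and 0 lower, and the other serine, proline and folate enzymes 2 higher and 1 lower.

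Leaving out 1 library at a time gave 0 to 1 lower among the 38 genes and among the stress genes, the 1 being Vldlr without HS 6, and 3 to 5 transporters higher. It gave 2 to 4 further ATF4 targets lower (4 without HS 6), 0 to 1 mitochondrial synthetase lower (0 without HS 1, HS 2, STEM 9 or STEM 10), and 2 to 5 other serine, proline and folate enzymes higher (5 with all libraries) and 2 to 5 lower (5 without HS 6). The number of the 38 genes higher was 22 to 29, the most without HS 6. Over all genes, these omissions gave 2289 to 3746 higher and 2133 to 3499 lower (14255 to 14307 tested), the most again without HS 6. Libraries were numbered 1 to 12 across the groups. No paired analysis was possible because the groups share no replicate number. The lowest count of any of the 38 genes in a library was 42, of Atf3, so sampling noise limits Atf3, Slc7a11 and Gdf15 most.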
